A study of Mus musculus with 18 samples.

Results

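The proteasome subunit genes were taken as every gene in the deposited mouse testis expression table whose symbol is Psma, Psmb, Psmc or Psmd followed by a number. The rule found 39 genes among 20979, and 38 of them were among the 13105 genes that averaged 1 FPKM or more and entered the tests. Psmb11, the thymic catalytic subunit, lay below that limit. No expression value entered the rule.

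The proteasome is the protease complex that degrades proteins tagged with ubiquitin. Its core particle is a barrel of stacked rings, in which outer alpha rings gate the entry and inner beta rings carry the catalytic sites of Psmb5, Psmb6 and Psmb7. Immune cells and cells exposed to interferon exchange these for Psmb8, Psmb9 and Psmb10, and germ cells of the testis exchange the alpha subunit Psma7 for Psma8. A regulatory particle of Psmc ATPases and Psmd subunits binds, unfolds and feeds in the substrate, while Psmd5, Psmd9 and Psmd10 are chaperones that help to assemble its base.

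RNA of whole testis from ICR mice aged 10 weeks was sequenced in 18 libraries, 3 in each of 6 groups. The groups were AOS at 10 mg/kg (AOS), a high-fat diet plus AOS, again 10 mg/kg (HFD-AOS), the diet with an FMT labelled AOS at 10 mg/kg (HFD-AOSFMT), the diet with an FMT labelled control (HFD-conFMT), the diet alone (HFD) and control. AOS and FMT stand as in the labels, which spell out neither, and the series concerns the effect of FMT on testis affected by the diet. The labels do not say that replicates were separate animals, and p-values therefore reflect only how far these samples differ among themselves, which may be technical in part.

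The 18 libraries summed to between 588081 and 637005 FPKM, and between 12996 and 13221 genes reached 1 FPKM in each. Depth relative to the other libraries was 0.896 in HFD-AOS 1 and between 0.969 and 1.021 elsewhere. This estimate is coarse, as many libraries shared the value of 1.021. Late spermatid markers, the protamines and transition proteins that pack sperm DNA, summed to at least 38506 FPKM and the 9 spermatocyte markers to at least 1043 FPKM in every library. Marker genes of the epididymis, the duct beside the testis, summed to 168 FPKM in control 3 and 109 FPKM in HFD-conFMT 2, and to at most 9.10 FPKM in the other libraries. HFD-AOS 1 stood apart, over all genes and for the genes described here. It held the lowest of the 18 values for 16.4% of all genes tested and the highest for 13.0%, in both cases more than any other library. It held the lowest value for 20 of 38 proteasome genes and the highest for 2. These 20 were spread over 5 of 8 alpha ring genes, 5 of 7 standard beta ring genes, 2 of 6 ATPase genes, 7 of 11 non-ATPase genes, 1 of 3 chaperones and 0 of 3 immune subunits. HFD-AOS 1 also had the highest sums of the 18 libraries for late spermatid (58777 FPKM), round spermatid (2013 FPKM), spermatocyte (1224 FPKM) and Leydig cell markers (4897 FPKM). Single markers of these lists were divided in HFD-AOS 1. Prm1, Prm2, Prm3, Tnp2, Acr, Acrv1, Spaca7, Sun5, Syce1, Syce2 and Insl3 had their highest values there, Insl3 with 4367 FPKM. Sycp3, Hormad1 and Mei1 stood at their lowest. Tnp1, Spaca1, Tssk1, Tssk2, Tssk3, Star and Cyp11a1 lay below their own means, and the remaining markers of these lists above theirs. The part of these measures in the low proteasome values was not tested.

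In testis, proteasome transcripts were abundant, steady between libraries and very unequal between subunits. Over the 18 libraries 32 of 39 genes averaged more than 10 FPKM, against 48.5% of all genes tested, and 8 averaged more than 100 FPKM. The median proteasome gene tested averaged 51.3 FPKM and the median gene tested 9.36 FPKM. The coefficient of variation over libraries was under 10% for 33 of 38 genes, compared with 60% of all genes tested. No comparison with other genes of similar level was made. Psmb8, Psmb9 and Psmb10, the lowest of the proteasome genes tested, varied by 15.0% to 51.5%. FPKM is scaled to transcript length, and levels of different genes are set beside each other on that reading of the values. The unit was inferred, and the gene models behind the values are unknown. Of the 39 genes, 7 have near-identical copies and 11 share exon bases with another gene. Differences in level between genes, and ratios of them, are uncertain to that extent.

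**Figure D1:**
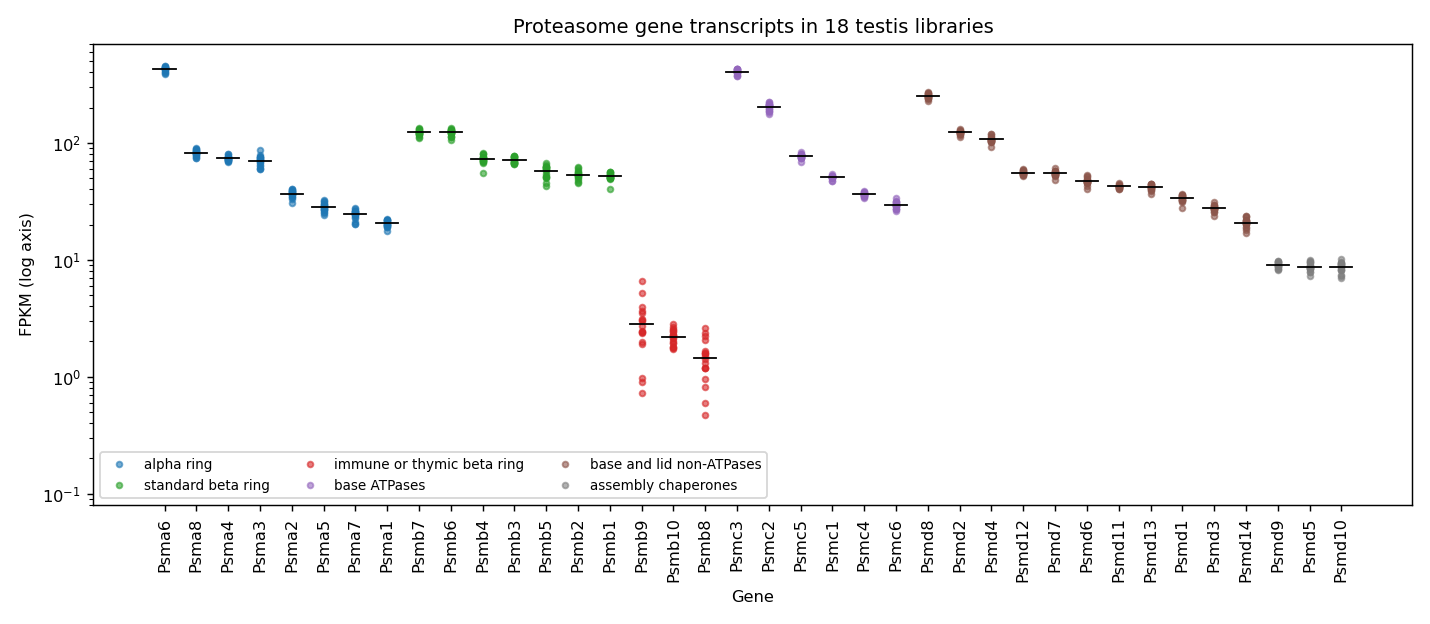
Level of each of the 38 proteasome genes tested in each of 18 testis libraries, in FPKM on a log axis, with genes ordered by mean within their place in the complex. Points are libraries and black bars means. Psma6 averages 429 FPKM and Psma1 20.4 FPKM within the alpha ring, and Psmb8, Psmb9 and Psmb10 stand below every other gene drawn.

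Each ring position is filled by its own subunit, yet the transcripts of the ring genes differed widely. Psma6 was the most abundant alpha ring transcript at 429 ± 19.6 FPKM (SD, n = 18), 8.37 times the median proteasome gene, and Psma1 the least at 20.4 FPKM, a 21.0-fold range. The standard beta ring was more even, with means between 51.7 FPKM for Psmb1 and 122.6 FPKM for Psmb7, a 2.37-fold range. Among the base ATPases, Psmc3 reached 407 ± 18.5 FPKM and Psmc6 29.5 FPKM. Of the non-ATPase subunits, Psmd8 of the lid was highest at 252 ± 11.2 FPKM and Psmd14, the lid deubiquitinase, lowest at 20.8 FPKM. The chaperones Psmd5, Psmd9 and Psmd10 averaged 8.72, 9.03 and 8.69 FPKM. Summed FPKM per library ranged from 685 to 815 for the 8 alpha ring genes and from 484 to 584 for the 7 standard beta ring genes, with HFD-AOS 1 the lowest for both.

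Psma8, the germ cell form, exceeded its ubiquitous counterpart Psma7 in every library. Psma8 had 76.5, 79.6 and 81.3 FPKM in AOS libraries, 74.6, 86.6 and 73.8 in HFD-AOS, 77.5, 85.5 and 79.8 in HFD-AOSFMT, 81.9, 88.0 and 88.3 in HFD-conFMT, 83.7, 80.2 and 82.5 in HFD, against 84.6, 90.4 and 85.7 in control libraries. Psma7 had 24.1, 25.9 and 26.3 FPKM in AOS libraries, 20.1, 24.5 and 27.9 in HFD-AOS, 20.8, 25.1 and 24.2 in HFD-AOSFMT, 22.9, 24.6 and 27.2 in HFD-conFMT, 25.1, 25.6 and 20.2 in HFD, against 25.6, 23.3 and 26.1 in control libraries. Their ratio was 3.39 ± 0.338 over the 18 libraries, with 2.64 the lowest and 4.09 the highest, and by group it averaged between 3.11 ± 0.0521 in AOS and 3.52 ± 0.504 in HFD libraries (SD, n = 3 each). The 3 AOS ratios, between 3.07 and 3.17, lay below the 3 control ratios, between 3.29 and 3.87, and those of each other group overlapped the control ratios. The ratio was not tested.

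The immune forms were rare beside their standard counterparts. Psmb8 had 1.55, 2.58 and 2.06 FPKM in AOS libraries, 1.42, 1.19 and 2.34 in HFD-AOS, 1.65, 0.47 and 1.30 in HFD-AOSFMT, 1.58, 1.59 and 2.23 in HFD-conFMT, 0.95, 0.81 and 1.18 in HFD, against 1.49, 0.59 and 1.19 in control libraries. Psmb9 had 2.36, 6.56 and 3.49 FPKM in AOS libraries, 1.91, 3.94 and 3.14 in HFD-AOS, 2.70, 2.47 and 2.43 in HFD-AOSFMT, 1.96, 3.00 and 5.22 in HFD-conFMT, 0.97, 0.73 and 3.04 in HFD, against 3.63, 0.90 and 2.43 in control libraries. Both were above 1 FPKM in most libraries and differed several-fold between libraries of some groups, with coefficients of variation of 39.9% for Psmb8 and 51.5% for Psmb9. Psmb10 had 2.26, 1.73 and 2.27 FPKM in AOS libraries, 2.40, 1.80 and 2.27 in HFD-AOS, 1.94, 2.16 and 2.02 in HFD-AOSFMT, 2.64, 2.83 and 2.51 in HFD-conFMT, 1.92, 2.47 and 2.13 in HFD, against 2.53, 1.77 and 1.79 in control libraries, and varied by 15.0%. The standard partner of Psmb9, Psmb6, had 125, 122 and 121 FPKM in AOS libraries, 106, 128 and 122 in HFD-AOS, 126, 129 and 128 in HFD-AOSFMT, 122, 134 and 130.3 in HFD-conFMT, 128, 125 and 115 in HFD, against 122, 112 and 112 in control libraries. That of Psmb10, Psmb7, had 119.9, 127 and 121 FPKM in AOS libraries, 111, 130.2 and 118 in HFD-AOS, 129, 122 and 123 in HFD-AOSFMT, 131, 133 and 125 in HFD-conFMT, 121, 113 and 118 in HFD, against 124, 116 and 122 in control libraries. Psmb6 and Psmb7, the caspase-like and trypsin-like catalytic subunits, stood above 100 FPKM in every library. Psmb8 stood at 2.54% of Psmb5, Psmb9 at 2.30% of Psmb6 and Psmb10 at 1.79% of Psmb7 on average (n = 18). Psmb11, known from the thymic cortex, was listed at 0 in 2 libraries and reached 0.11 FPKM at most, with 0.03, 0.01 and 0.05 FPKM in AOS libraries, 0, 0.03 and 0.11 in HFD-AOS, 0.09, 0.06 and 0.05 in HFD-AOSFMT, 0.01, 0.05 and 0 in HFD-conFMT, 0.02, 0.03 and 0.03 in HFD, against 0.03, 0.02 and 0.03 in control libraries.

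Psmb9 and Psmb8 varied together across libraries. Of the 3 pairs, Psmb8 with Psmb9 gave Pearson's r of 0.718 (permutation p = 0.00084, adjusted over 3 pairs 0.00252) and Spearman's rho of 0.616 (permutation p = 0.00766, adjusted 0.0230) over 18 libraries, on log2(FPKM + 1) values and 2-sided. Without HFD-AOSFMT 2 and control 2, whose Psmb8 lay farthest from the median, r was 0.774, and on deviations from group means it was 0.589. For Psmb8 with Psmb10 r was 0.204 (permutation p = 0.416, adjusted 0.624, rho 0.262), and for Psmb9 with Psmb10 it was -0.0080 (permutation p = 0.975, adjusted 0.975, rho 0.0062). Psmb9 and Psmb8 lie on chromosome 17 of GRCm38 with Tap1 and Tap2, whose products carry peptides to MHC class I, within 34335 bases. The order is Psmb9, Tap1, Psmb8 and Tap2, and Psmb10 is on chromosome 8. Tap1 had 3.79, 7.52 and 3.72 FPKM in AOS libraries, 2.73, 2.76 and 4.03 in HFD-AOS, 4.88, 3.25 and 1.80 in HFD-AOSFMT, 0.81, 2.76 and 5.01 in HFD-conFMT, 0.71, 0.75 and 3.59 in HFD, against 2.87, 0.73 and 3.89 in control libraries. Psmb9, Psmb8, Tap1 and Tap2 were all highest of the 18 libraries in AOS 2. The exons of Psmb9 and Tap1 share 212 bases on opposite strands, and the strand setting of the counting is not given in the sources used here, so reads from those bases cannot be told apart. Psmb8 likewise shares 498 of its 3381 exon bases with the antisense gene Gm20496.

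The start regions of this pair are shown because their transcripts moved together. They are windows of 300 bases around the start that RefSeq annotates on GRCm38.p6, 5′ to 3′ on the gene's strand. GENCODE places its outermost start 434 bases upstream of the RefSeq start for Psmb9 and 474 bases upstream for Psmb8, outside both windows. The Psmb9 window holds 3 of that gene's 7 GENCODE transcript starts and the Psmb8 window 0 of 7. The Psmb9 window is chr17:34187281-34187580, minus strand, and reaches past the annotated start of Tap1. The Psmb8 window is chr17:34197945-34198244, plus strand. Capitals mark matches, on either strand, to an interferon-stimulated response element (GAAA, a gap of 2 bases, GAAA) or a CCAAT box (CCAAT), with overlaps between motifs allowed.
Psmb9: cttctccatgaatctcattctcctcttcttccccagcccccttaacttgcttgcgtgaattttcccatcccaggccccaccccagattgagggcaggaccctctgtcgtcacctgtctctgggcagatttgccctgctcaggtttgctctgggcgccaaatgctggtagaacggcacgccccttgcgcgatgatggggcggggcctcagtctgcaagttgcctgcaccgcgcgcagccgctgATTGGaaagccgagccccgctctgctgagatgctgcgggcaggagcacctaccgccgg
Psmb8: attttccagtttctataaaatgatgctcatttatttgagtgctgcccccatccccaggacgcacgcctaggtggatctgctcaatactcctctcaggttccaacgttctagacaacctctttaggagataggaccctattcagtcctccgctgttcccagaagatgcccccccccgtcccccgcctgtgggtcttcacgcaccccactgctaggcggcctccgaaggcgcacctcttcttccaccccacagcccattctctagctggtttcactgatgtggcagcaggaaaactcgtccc
The Psmb9 window held 1 match, ATTGG at position -8 from the start, which is a CCAAT box on the other strand, and the Psmb8 window held none in these letters, which says nothing of the sequence at the GENCODE starts. Windows were at hand for 32 of the 39 genes, 34 windows in all. The response element letters occurred in 3 of the 34, those of Psmb3, Psmd4 and Psmd9 (8.82%, against 3.44% of 32851 RefSeq windows), and the CCAAT letters in 13 (38.2%, against 37.4%).

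**Figure D2:**
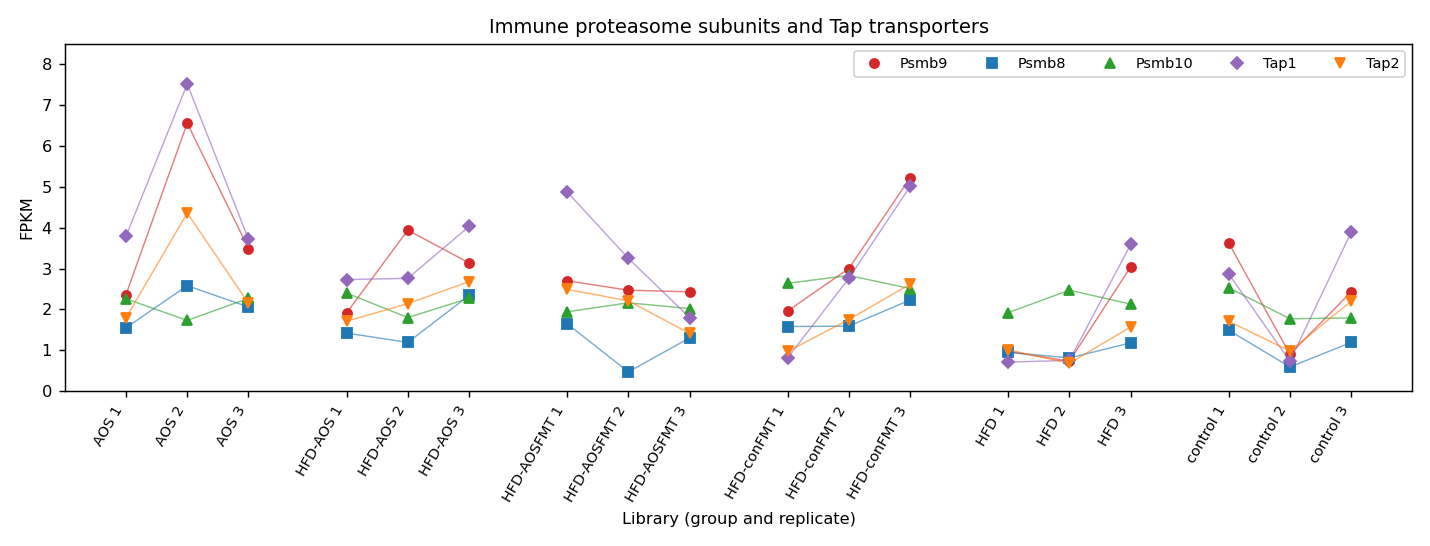
Levels of Psmb9, Psmb8, Psmb10, Tap1 and Tap2 in each library, in FPKM, by group and replicate number. Lines join the libraries of a group for reading only. Psmb9 and Tap1 reach 6.56 and 7.52 FPKM in AOS 2, and Psmb10 stays between 1.73 and 2.83 FPKM throughout.

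Leukocytes and interferon-exposed cells are known sources of these forms, so their markers are given beside them. The 10 macrophage and leukocyte markers summed to between 47.3 FPKM in AOS 1 and 71.5 FPKM in HFD-conFMT 2. By group the sums were 47.3 to 63.6 FPKM in AOS, 51.8 to 60.6 in HFD-AOS, 53.7 to 61.1 in HFD-AOSFMT, 61.7 to 71.5 in HFD-conFMT, 48.3 to 52.6 in HFD and 55.4 to 58.4 in control libraries. The 10 interferon response genes summed to between 9.35 FPKM in HFD 3 and 33.2 FPKM in AOS 3, with 1 of them averaging under 0.1 FPKM. By group these sums were 11.3 to 33.2 FPKM in AOS, 18.7 to 28.75 in HFD-AOS and 9.99 to 17.2 in HFD-AOSFMT. They were 13.85 to 16.9 FPKM in HFD-conFMT, 9.35 to 13.1 in HFD and 10.6 to 12.9 in control libraries. AOS 2, where Psmb8 and Psmb9 were highest, had an interferon response sum of 11.3 FPKM and a leukocyte sum of 63.6 FPKM. Single interferon response genes were divided in AOS 2. Ifi27l2a stood at its lowest of the 18 libraries there, at 1.54 FPKM, and Gbp2 at its highest, at 0.78 FPKM. The 6 lymphocyte markers summed to at most 6.67 FPKM, also with 1 averaging under 0.1 FPKM. Their part in the levels of Psmb8 and Psmb9 was not tested, and in whole testis fewer cells of a type and less RNA per cell cannot be told apart.

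Between groups, 0 of 38 proteasome genes passed an adjusted p under 0.05 in any of the 6 pairwise comparisons, in the interaction of AOS and diet (the AOS effect on the diet minus that off it), or in the F test over the 6 groups. The tests were limma on log2(FPKM + 1) with Benjamini-Hochberg adjustment over 13105 genes, and fold changes on this scale understate changes of low genes. At an unadjusted p under 0.05 stood 1 gene for HFD minus control, 3 for AOS minus control, 4 for HFD-AOS minus HFD, 2 for HFD-AOSFMT minus HFD, 3 for HFD-conFMT minus HFD, 3 for HFD-AOSFMT minus HFD-conFMT, 3 for the interaction and 5 for the F test. Few genes of any kind passed: the share of all genes at an adjusted p under 0.05 was 0%, 0.0229%, 0%, 0.0229%, 0%, 0.00763%, 0% and 0.328% in the same order. The shares at an unadjusted p under 0.05 were 6.75%, 15.8%, 12.7%, 9.82%, 12.3%, 3.12%, 6.86% and 18%.

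**Figure D3:**
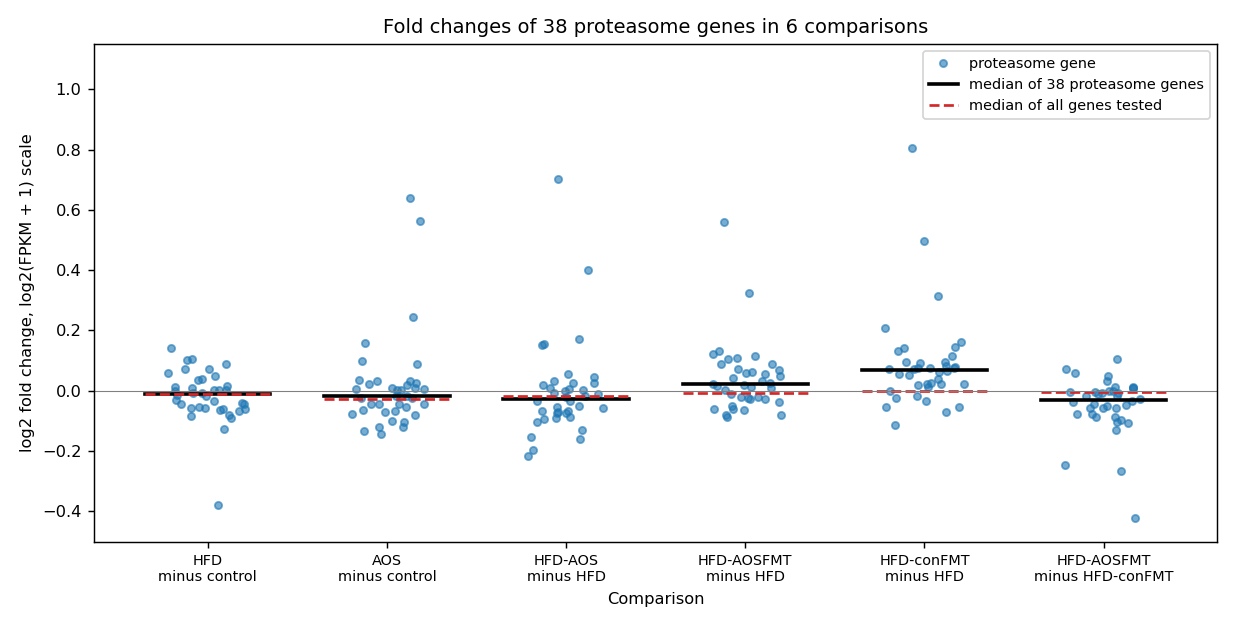
Log2 fold changes of the 38 proteasome genes on the log2(FPKM + 1) scale in the 6 pairwise comparisons. Points are genes, solid bars their median and dashed bars the median of all 13105 genes tested. The median is farthest from 0 for HFD-conFMT minus HFD, at 0.069, and the outermost points in most comparisons are Psmb8 and Psmb9.

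The pattern with the smallest p in the F test was that of Psmb5, the chymotrypsin-like catalytic subunit. Psmb5 had 61.7, 59.8 and 64.6 FPKM in AOS libraries, 42.6, 57.1 and 66.7 in HFD-AOS, 59.7, 62.6 and 62.3 in HFD-AOSFMT, 59.6, 62.0 and 61.5 in HFD-conFMT, 50.8, 44.9 and 51.3 in HFD, against 50.3, 52.2 and 54.1 in control libraries. All AOS, HFD-AOSFMT and HFD-conFMT libraries lay above all HFD and control libraries, and the 3 HFD-AOS libraries spread from below to above that divide. The share of all genes with such a split was not counted. Psmb5 was picked from the proteasome genes by its p, so how unusual the split is cannot be told. The F test gave an adjusted p of 0.218. Psmb5 was higher by 0.24 (SE 0.11, adjusted p = 0.282) in AOS than in control, by 0.32 (SE 0.11, adjusted p = 0.384) in HFD-AOSFMT than in HFD and by 0.31 (SE 0.11, adjusted p = 0.278) in HFD-conFMT than in HFD. It was higher by 0.15 (SE 0.11, adjusted p = 0.577) in HFD-AOS than in HFD, and lower in HFD than in control, at -0.091 (SE 0.11, adjusted p = 0.882). The comparisons with HFD share its libraries, and those with control share the control libraries.

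Psmb5 passed when HFD-AOS 1 was left out. Without that library the F test gave Psmb5 an adjusted p of 0.0300, where 0.603% of all genes passed, 79 in number against 43 with it. Under the other alternatives that adjusted p lay between 0.0633 and 0.4003. The fold changes against HFD or control then had adjusted p-values of 0.0747 for AOS, 0.232 for HFD-AOS (0.33, SE 0.066), 0.0756 for HFD-AOSFMT and 0.0521 for HFD-conFMT. Psmb5 has a processed pseudogene copy, Gm3375, that is 98.9% identical over 88.4% of its transcript, and how the counting assigned shared reads is not given in the sources used here. Psmb5 also shares 109 of its 899 exon bases with the microRNA gene Mir686 on the same strand. The level of Psmb5 is uncertain to that extent. In all, 7 of the 39 genes have such copies of at least 95% identity over at least 50% of the transcript: Psma4, Psma5, Psmb3, Psmb5, Psmc1, Psmd2 and Psmd11.

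The start region of Psmb5 is shown as the member with this pattern, at chr14:54617946-54618245 on GRCm38.p6, minus strand, from RefSeq. Capitals mark a match to TGACNNNGC, on either strand, the core of the response element of Nfe2l1 and Nfe2l2, transcription factors known to drive proteasome genes.
Psmb5: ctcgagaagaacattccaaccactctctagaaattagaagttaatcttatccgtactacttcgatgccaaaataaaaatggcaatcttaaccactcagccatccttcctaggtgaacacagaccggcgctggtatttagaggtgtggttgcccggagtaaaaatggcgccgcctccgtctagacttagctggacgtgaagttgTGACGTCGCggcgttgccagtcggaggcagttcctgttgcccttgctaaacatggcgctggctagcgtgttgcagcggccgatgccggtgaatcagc
The match is TGACGTCGC at position -47 from the start. These letters occurred in 5 of the 34 windows (14.7%), those of Psmb5, Psmb6, Psmc6, Psmd9 and Psmd12, and in 12.4% of all RefSeq windows.

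**Figure D4:**
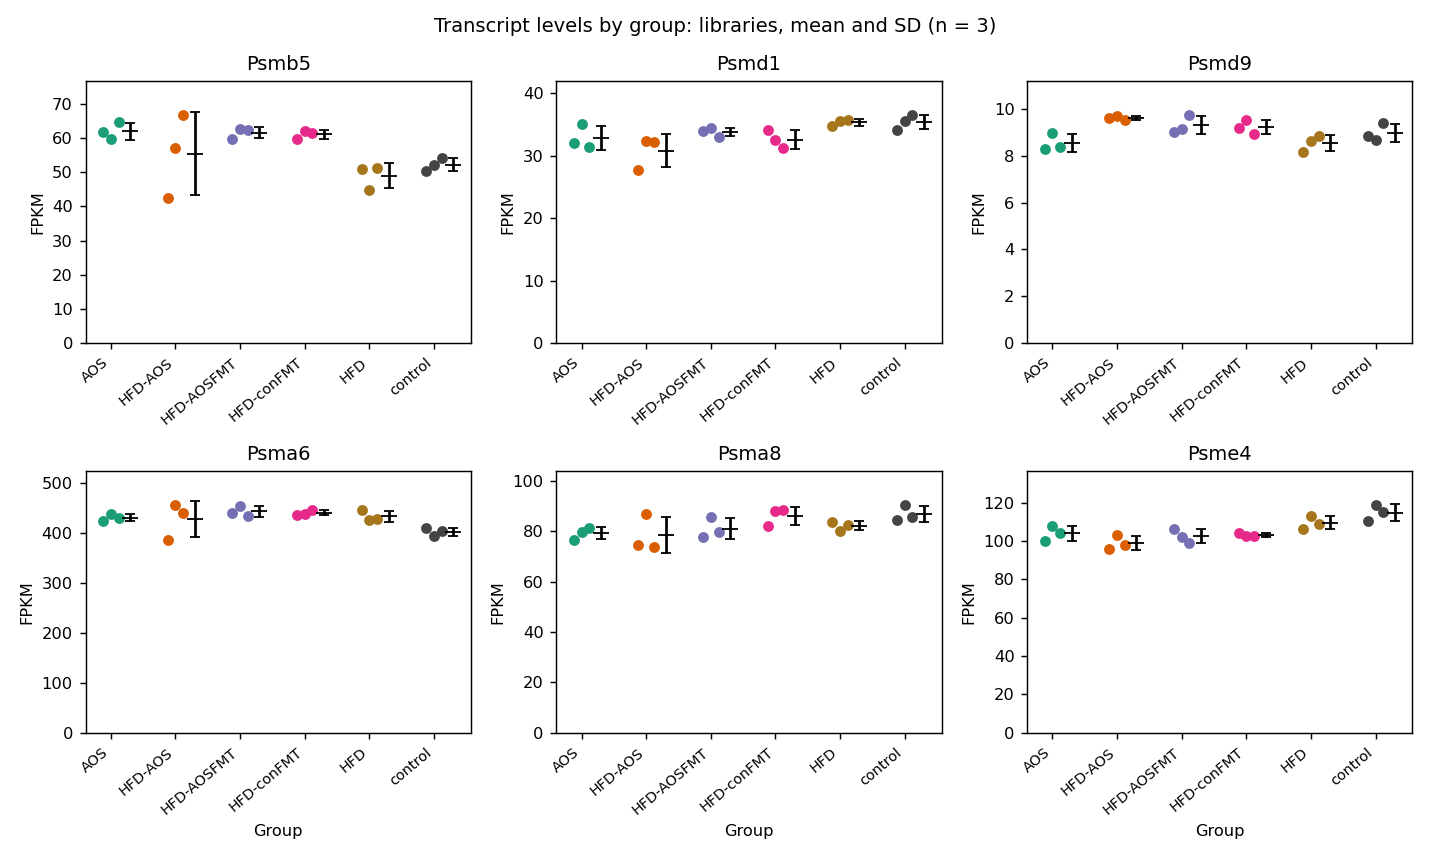
Levels of Psmb5, Psmd1, Psmd9, Psma6, Psma8 and the activator gene Psme4 by group, in FPKM. Points are libraries, and bars mean and SD (n = 3). The lowest point of Psmb5, at 42.6 FPKM, and of Psmd1, at 27.7 FPKM, is HFD-AOS 1, and for Psme4 the 3 control libraries, at 110 to 119 FPKM, include the highest.

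For HFD minus control the median fold change of proteasome genes was -0.011, beside -0.011 for all genes. It was above 0 for 16 of 38, where 45.2% of all genes were above 0. Without control 3, which held epididymal transcripts, the split was 19 and 19. Psma6, the abundant alpha subunit, had 424, 437 and 429 FPKM in AOS libraries, 386, 456 and 439.8 in HFD-AOS, 440.0, 454 and 434 in HFD-AOSFMT, 436, 437 and 446 in HFD-conFMT, 445, 425 and 428 in HFD, against 409, 394 and 403 in control libraries. The 3 HFD values lay above the 3 control values, with a fold change of 0.11 (SE 0.048, adjusted p = 0.732). It was the only proteasome gene higher with no overlap, and Psma8 the only one lower, where 5.17% and 7.35% of all genes were. Psma5, another alpha subunit, had 26.6, 28.0 and 27.5 FPKM in AOS libraries, 24.2, 28.2 and 25.2 in HFD-AOS, 28.9, 28.9 and 29.3 in HFD-AOSFMT, 27.2, 31.5 and 29.7 in HFD-conFMT, 30.9, 32.4 and 27.3 in HFD, against 26.5, 29.7 and 25.6 in control libraries, and its groups overlapped (0.14, SE 0.072, adjusted p = 0.746). The lid subunit Psmd3 had 28.0, 28.4 and 27.3 FPKM in AOS libraries, 28.0, 25.4 and 27.7 in HFD-AOS, 27.9, 29.4 and 25.8 in HFD-AOSFMT, 29.1, 27.6 and 28.9 in HFD-conFMT, 27.1, 23.8 and 27.0 in HFD, against 26.8, 27.2 and 31.3 in control libraries. Psmd3 overlapped too (-0.13, SE 0.066, adjusted p = 0.753), and control 3 held its highest value.

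For AOS minus control the median was -0.018, beside -0.029 for all genes, and 18 of 38 genes were above 0, against 40.2% of all. Without control 2 the split was 11 above and 27 below, with a median of -0.027. Psma3, Psma6, Psmb5 and Psmb8 were higher in every AOS library than in every control library, and Psma8 and Psmd12, a lid subunit, were lower, where 7.96% of all genes were higher and 15.2% lower in this way. Psmb8 had the smallest p, with AOS libraries at 1.55 to 2.58 FPKM and control libraries at 0.59 to 1.49 FPKM (0.56, SE 0.22, adjusted p = 0.232). Psma8 was lower by a fold change of -0.13 (SE 0.058, adjusted p = 0.278), with 81.3 FPKM the highest AOS value and 84.6 FPKM the lowest control value.

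Psme4, a core activator known for its part in histone removal in spermatids, is not among the 39 genes and is given beside Psma8 for that role. Psme4 had 100.2, 108 and 104 FPKM in AOS libraries, 96.0, 103 and 97.8 in HFD-AOS, 106, 102 and 98.9 in HFD-AOSFMT, 104, 103 and 103 in HFD-conFMT, 106, 113 and 109 in HFD, against 110.4, 119 and 115 in control libraries. Its fold change was -0.14 (SE 0.042, adjusted p = 0.146) for AOS minus control and -0.14 (SE 0.042, adjusted p = 0.236) for HFD-AOS minus HFD, and its F test gave an adjusted p of 0.116. Germ cell markers are given beside these values: for AOS minus control, 5 of 9 spermatocyte markers were below 0, with 0 called and Sycp2 of the synaptonemal complex at 74.2 ± 1.02 FPKM in AOS and 86.4 ± 3.02 FPKM in control libraries (SD, n = 3 each; adjusted p = 0.109). The spermatocyte sums were 1043 to 1157 FPKM in AOS and 1124 to 1154 FPKM in control libraries. For the same comparison all 5 late spermatid markers were above 0, with sums of 52299 to 54026 FPKM in AOS and 41257 to 47306 FPKM in control libraries, as were 6 of 8 round spermatid markers (median 0.098). For HFD-AOS minus HFD all 5 late spermatid and 6 of 8 round spermatid markers were above 0, with medians of 0.27 and 0.080, and 6 of 9 spermatocyte markers were below 0 (median -0.051). HFD 2 had the lowest late spermatid sum of the 18 libraries, at 38506 FPKM. In these lists 0 markers were called. The part of the cell makeup in the values of Psma8 and Psme4 was not tested.

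For HFD-AOS minus HFD 14 of 38 genes were above 0, against 43.9% of all, and the median was -0.027, beside -0.017 for all genes. Without HFD-AOS 1 the median was 0.021 and 22 of 38 genes were above 0. Psmd1, the large scaffold of the base, had 32.1, 35.1 and 31.5 FPKM in AOS libraries, 27.7, 32.4 and 32.3 in HFD-AOS, 33.9, 34.4 and 33.1 in HFD-AOSFMT, 34.1, 32.5 and 31.2 in HFD-conFMT, 34.7, 35.6 and 35.8 in HFD, against 34.2, 35.6 and 36.5 in control libraries. Every HFD-AOS value was below every HFD value (-0.20, SE 0.058, adjusted p = 0.236; -0.13, SE 0.050, adjusted p = 0.382 without HFD-AOS 1). Psmd1 shares 301 exon bases with Gm21972 on the same strand, so part of its reads cannot be told apart from those of that gene, and it shares 252 exon bases with Htr2b on the opposite strand. The base chaperone Psmd9 had 8.28, 8.97 and 8.38 FPKM in AOS libraries, 9.62, 9.70 and 9.54 in HFD-AOS, 9.02, 9.14 and 9.73 in HFD-AOSFMT, 9.17, 9.53 and 8.93 in HFD-conFMT, 8.17, 8.65 and 8.85 in HFD, against 8.83, 8.68 and 9.40 in control libraries. Here every HFD-AOS value was above every HFD value, with a fold change of 0.15 (SE 0.049, adjusted p = 0.263). Psmd9 shares 1849 of its 7248 exon bases with Gm26745, a long non-coding RNA gene on the opposite strand, so its level is uncertain in the same way. Psmd2 was the other gene lower with no overlap and Psmb8 the other one higher, where 8.49% of all genes were lower and 4.9% higher. Psma5 overlapped between the groups, with a fold change of -0.22 (SE 0.072, adjusted p = 0.278).

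**Figure D5:**
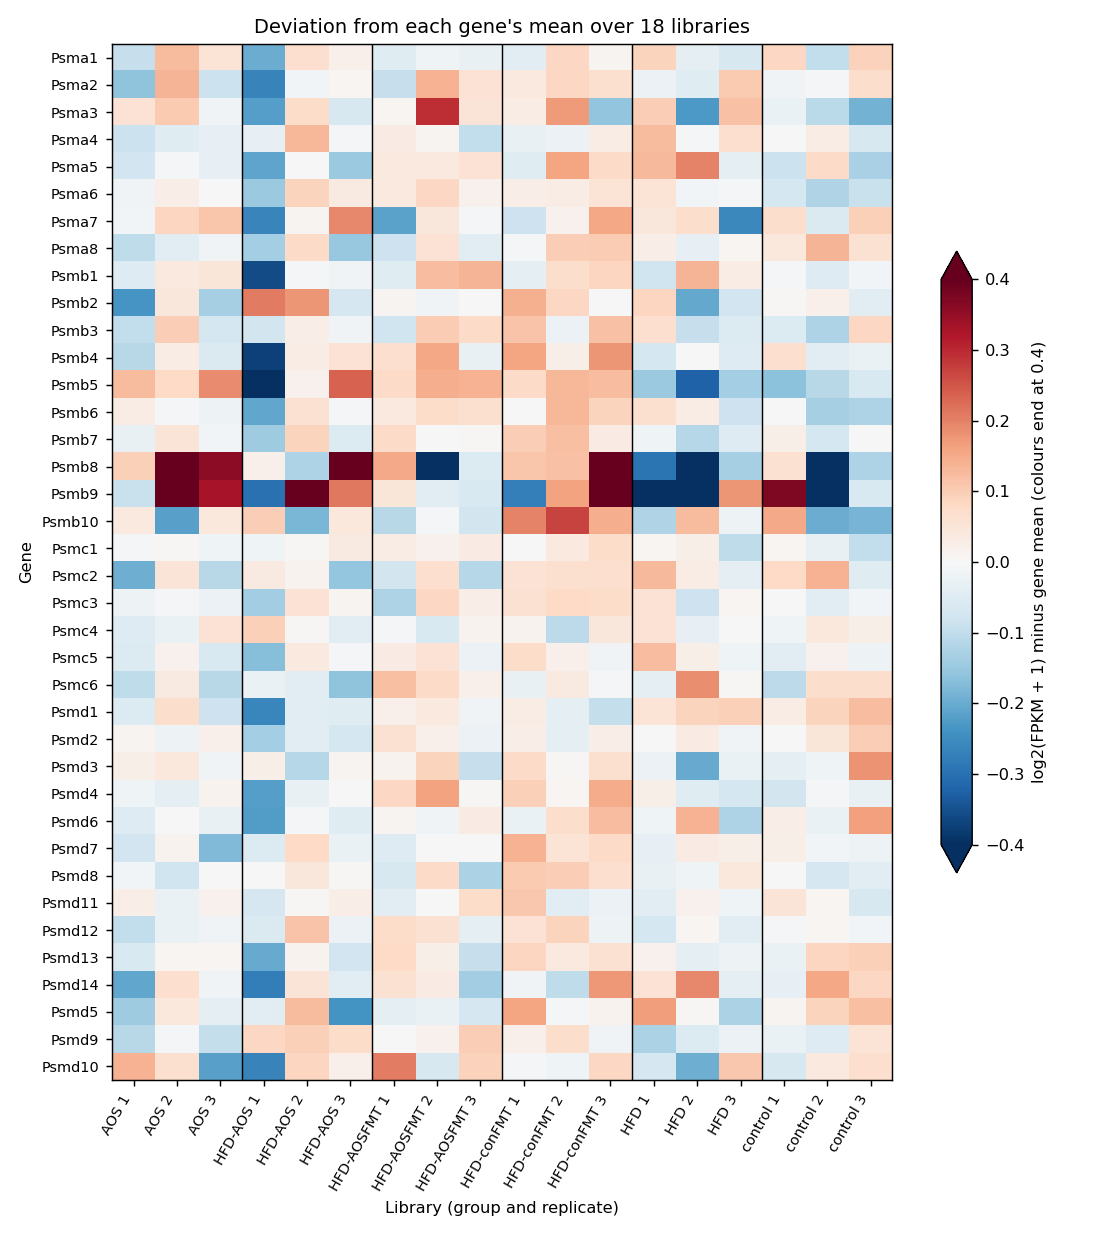
Deviation of each proteasome gene from its own mean over the 18 libraries, on the log2(FPKM + 1) scale, by library. Red is above and blue below the mean, and colours end at 0.4. HFD-AOS 1 is blue for most genes, with a median deviation of -0.14, and in the 3 HFD-conFMT libraries 26, 29 and 31 of 38 genes lie above their own mean.

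Both FMT groups had more proteasome genes above than below the HFD group that they share. Within groups, the median deviation of proteasome genes in a library had a pooled SD of 0.042 on the log2(FPKM + 1) scale. Genes of a library can move together, as in HFD-AOS 1, so the counts below are not of independent genes. For HFD-AOSFMT minus HFD 24 of 38 were above 0, against 47.3% of all genes, and the median was 0.022, beside -0.0061 for all. After quantile normalization 20 of 38 were above 0. For HFD-conFMT minus HFD 30 of 38 were above 0, against 49.2% of all, and the median was 0.069, beside -0.0020 for all. All 7 standard beta ring genes were above 0 in both, with medians of 0.064 for HFD-AOSFMT and 0.14 for HFD-conFMT. The alpha ring, ATPase and non-ATPase genes were divided. For HFD-AOSFMT 3 of 8 alpha ring genes (median -0.017), 3 of 6 ATPase genes (-0.0090) and 7 of 11 non-ATPase base and lid genes (0.013) were above 0. For HFD-conFMT these were 6 of 8 (0.022), 3 of 6 (0.0035) and 8 of 11 (0.074). Of the immune subunits tested, 2 of 3 (median 0.073) were above 0 for HFD-AOSFMT and 3 of 3 (0.50) for HFD-conFMT. Of the chaperones, 2 of 3 (0.11) and 3 of 3 (0.072) were above 0 in the same order. In the HFD-conFMT libraries 26, 29 and 31 of 38 genes exceeded their own mean over all libraries, where 50.3%, 51.7% and 54.0% of all genes did. Cell type markers are given beside these values, with 0 called in each list. All 5 late spermatid markers were above 0 in both comparisons, with sums of 49253 to 51657 FPKM in HFD-AOSFMT, 52425 to 56808 FPKM in HFD-conFMT and 38506 to 51512 FPKM in HFD libraries. The lowest HFD sum was that of HFD 2. HFD 1 and HFD 3 summed to 50670 and 51512 FPKM, inside the HFD-AOSFMT range and below the HFD-conFMT range. In both comparisons 6 of 8 round spermatid and 7 of 9 spermatocyte markers were below 0. For HFD-AOSFMT minus HFD all 8 macrophage and leukocyte markers tested were above 0 (median 0.16). The part of these cells in the proteasome values was not tested.

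For HFD-conFMT minus HFD 11 genes were higher with no overlap, where 10.3% of all genes were. They were Psmb4, Psmb5, Psmb7, Psmb8 and Psmb10 of the beta ring, the ATPase Psmc3, the lid subunits Psmd3, Psmd7, Psmd8 and Psmd13, and the chaperone Psmd9. Psmd1 alone was lower in this way, against 9.83% of all genes. The levels of Psmb7, the trypsin-like catalytic subunit, are given above and differed by 0.15 (SE 0.052, adjusted p = 0.306), and those of Psmb8 by 0.50 (SE 0.22, adjusted p = 0.381). Leaving out HFD-conFMT 2, which held epididymal transcripts, gave a median of 0.059, with the split of 30 and 8 as before, while leaving out HFD 3 gave 25 and 13 (median 0.070). All but 1 of the 8 leukocyte markers tested and 5 of the 6 MHC class I genes were above 0 in the same comparison, with 0 called in either list, and the part of leukocytes was not tested.

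For HFD-AOSFMT minus HFD the genes higher with no overlap were Psmb5, Psmb7 and Psmd9, where 8.34% of all genes were, and Psmd1 was lower, where 8.88% were. Psmd9 differed by 0.11 (SE 0.049, adjusted p = 0.496). The ubiquitin receptor Psmd4 had 105, 104 and 108 FPKM in AOS libraries, 91.4, 105 and 107 in HFD-AOS, 113, 119 and 107 in HFD-AOSFMT, 114, 107 and 118 in HFD-conFMT, 108, 103 and 101 in HFD, against 101, 106 and 104 in control libraries. Psmd4 overlapped between the HFD-AOSFMT and HFD libraries, with a fold change of 0.11 (SE 0.057, adjusted p = 0.531).

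The FMT groups were also set against each other. For HFD-AOSFMT minus HFD-conFMT 9 of 38 genes were above 0, against 47.1% of all, and the median was -0.031, beside -0.0053 for all genes. Without HFD-conFMT 3 the split was 14 above and 24 below, with a median of -0.016. The 3 genes with the smallest p were Psmd8, Psmb10 and Psmd7, each with an adjusted p of 1.00. Psmd8 had 249.7, 238 and 251 FPKM in AOS libraries, 252, 259.5 and 252 in HFD-AOS, 240.1, 265 and 229.9 in HFD-AOSFMT, 270.3, 269 and 263 in HFD-conFMT, 246, 248 and 259 in HFD, against 252, 239.9 and 243 in control libraries. Psmd7, the lid partner of Psmd14, had 51.8, 55.2 and 48.2 FPKM in AOS libraries, 52.6, 57.8 and 53.7 in HFD-AOS, 52.7, 54.6 and 54.8 in HFD-AOSFMT, 60.3, 56.9 and 57.7 in HFD-conFMT, 53.5, 55.9 and 55.5 in HFD, against 55.5, 54.2 and 53.9 in control libraries. Psmb10 and Psmd7 did not overlap between the groups, at fold changes of -0.27 (SE 0.11) and -0.11 (SE 0.048), while Psmd8 did, through HFD-AOSFMT 2 (-0.13, SE 0.045). Psmd5 was lower with no overlap as well, where 5.39% of all genes were, and 0 proteasome genes were higher in this way, against 4.68% of all.

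The interaction, the AOS effect on the diet minus that off it, was above 0 for 15 of 38 genes, against 53% of all, and the median was -0.010. It was above 0 for 25 of 38 without HFD-AOS 1 (median 0.039) and for 8 of 38 without HFD-AOS 2 (median -0.056). Psmd9 had the smallest p, with a difference of 0.22 (SE 0.070, adjusted p = 0.641): it was higher by 0.15 in HFD-AOS than in HFD and lower in AOS than in control, at -0.063 (SE 0.049, adjusted p = 0.552). Psmb2, of the beta ring, had 45.1, 54.9 and 48.5 FPKM in AOS libraries, 61.7, 60.3 and 50.8 in HFD-AOS, 53.6, 52.8 and 53.1 in HFD-AOSFMT, 58.8, 56.4 and 53.3 in HFD-conFMT, 56.6, 46.1 and 50.4 in HFD, against 53.4, 54.0 and 51.6 in control libraries. Its difference was 0.27 (SE 0.12, adjusted p = 0.703) and that of Psma5 was -0.22 (SE 0.10, adjusted p = 0.727).

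Of 39 other genes of the pathway that were tested, 0 passed an adjusted p under 0.05 in any comparison by limma, and at an unadjusted p under 0.05 there were 2, 4, 7, 4, 2, 0, 3 and 7, in the order of the counts above. The activator subunits Psme1 and Psme2, which accompany the immune proteasome, averaged 16.0 and 16.8 FPKM, the nuclear activator Psme3 69.7 FPKM and Psme4 105 FPKM. Of the segregase and shuttles, Vcp, which extracts ubiquitinated proteins, averaged 69.1 ± 6.84 FPKM in HFD-AOS and 78.8 ± 5.16 FPKM in HFD libraries (SD, n = 3 each; -0.19, adjusted p = 0.248), with HFD-AOS 1 lowest at 61.2 FPKM. Ube3c, a ubiquitin ligase bound to the regulatory particle, averaged 21.6 ± 1.54 FPKM in HFD-AOS and 24.5 ± 0.499 FPKM in HFD libraries (SD, n = 3 each; -0.18, adjusted p = 0.278). The factor Nfe2l1 averaged 14.9 ± 1.59 FPKM in AOS and 17.2 ± 0.870 FPKM in control libraries (SD, n = 3 each; -0.19, adjusted p = 0.191). The assembly chaperone Psmg4 averaged 9.57 ± 1.95 FPKM in HFD-AOSFMT and 6.34 ± 0.628 FPKM in HFD libraries (SD, n = 3 each; 0.51, adjusted p = 0.464). Tapbp, which tethers MHC class I to the peptide transporter, averaged 19.1 ± 0.253 FPKM in HFD and 21.6 ± 1.01 FPKM in control libraries (SD, n = 3 each; -0.16, adjusted p = 0.648). All 6 MHC class I genes were below 0 for HFD minus control and above 0 for HFD-AOS minus HFD and HFD-AOSFMT minus HFD, comparisons that share the HFD libraries.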

How the data were processed

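Per the labels' protocols, testes were frozen in liquid nitrogen, RNA was taken up in Trizol and purified on a column, and Illumina libraries were made from total RNA. Per the submitters' processing notes, Bowtie 0.12.2 and the mm10 genome were used. How reads were counted, with which gene models and whether by strand, is not given in the sources used here. A table of 20985 gene values per library, to 2 decimals, was deposited by the authors, and its header names no unit. The authors' values were read as FPKM, a read count scaled to transcript length and library total before deposit, because library sums are unequal and the smallest steps between values follow transcript length. Those steps gave relative depth. Counting intervals are left out for want of the absolute depth. Each column was matched to a sample by its group letters and replicate number.

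Left out were 6 rows of 3 repeated symbols, and 403 rows were at 0 in every library. Genes averaging under 1 FPKM were dropped, values were transformed to log2(FPKM + 1), and limma 3.58.1 in R 4.3.3 was fitted to 6 group means with a mean-variance trend (12 residual degrees of freedom) and Benjamini-Hochberg adjustment over 13105 genes at 0.05. The fit was tested on simulated data. Fold changes are differences of log2 means, 2-sided. Correlations used 100000 permutations. Near-identical copies came from blastn 2.17.0+ against GENCODE vM21 transcripts, exon overlaps from the same annotation, and start regions from RefSeq.

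The members, gene lists and tests were chosen with earlier results of these data known. Values in every library are given for the 3 genes of smallest p in each comparison and in the F test, those of highest and lowest mean, and subunits with a tissue or immune form and their counterparts. Other names follow counts of up to 11 genes whose groups did not overlap, and were picked with their values in view. Of the interferon response list, 1 gene is not reported here and enters no sum, and 1 motif was left out of the search. Gene levels of other pathway lists are given for the smallest p of a list over the pairwise comparisons and for Psme1 to Psme4. With the interaction counted, Ubqln4 had the smallest p of the list of segregase and shuttles. Levels of Ubqln4, Tap1, Sem1 and Usp14 are given as well. Same-numbered libraries did not vary together: the correlation of their deviations ran from -0.243 to 0.167 over 45 pairs, with 2 above 0.1, so replicate numbers were not treated as pairs. The alternatives were another pseudocount, other filters, quantile normalization, array weights, a replicate block, a fit of the compared groups alone, a correction for length and GC content, and leaving out libraries.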

Additional observations from a re-analysis of the deposited data

How the results depend on the processing

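Across 27 alternatives, 0 proteasome genes were called in any pairwise comparison or in the interaction of AOS and diet, and 0 to 1 in the F test over the 6 groups. The exception was Psmb5, with an adjusted p of 0.0300 by limma without HFD-AOS 1. The median fold change of proteasome genes moved beyond the spread between replicates for HFD-AOS minus HFD, to -0.075 when HFD-AOS 2 was left out and 0.021 when HFD-AOS 1 was, and for the interaction of AOS and diet, to -0.056 and 0.039 without the same libraries, which were the ends of its range. The cause was not tested. With array weights 19 of 38 genes were above 0 in that comparison and 23 of 38 in the interaction of AOS and diet. Medians for the other pairwise comparisons ranged over the alternatives from -0.025 to 0.0048 for HFD minus control, -0.039 to -0.0048 for AOS minus control, 0.0092 to 0.043 for HFD-AOSFMT minus HFD, 0.046 to 0.072 for HFD-conFMT minus HFD and -0.042 to -0.016 for HFD-AOSFMT minus HFD-conFMT. Of the values for single genes, 803 kept their direction and side of the threshold, or moved within their spread, 1 passed the threshold anew and 0 reversed. Leaving out a library of a group outside a comparison cannot change its fold changes, so part of these values could not have reversed.

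Counts over all genes were less stable than those of proteasome genes. The F test called 43 genes, and between 1, without both control 3 and HFD-conFMT 2, and 145, without HFD-AOS 3. AOS minus control called 3 and between 0 and 240, the most with array weights. HFD-AOSFMT minus HFD called 3 and between 1 and 26, HFD-conFMT minus HFD 0 and up to 17, HFD-AOSFMT minus HFD-conFMT 1 and up to 16, HFD-AOS minus HFD 0 and up to 4, and HFD minus control 0 and up to 1. With the replicate block 0 proteasome genes were called in any comparison, and over all genes the F test called 20 and HFD-AOSFMT minus HFD called 1. The fit of the compared groups alone gives no F test, and Psmb8, Psmb9 and Psmb10 have no value at a mean of at least 5 FPKM. The absolute depth is unknown, so no limit of detection can be given for these 3 genes, whose levels are the lowest of those tested.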

Other observations

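Ubqln4, a ubiquitin receptor that shuttles substrates to the proteasome, had the largest interaction of AOS and diet among the other pathway genes with an unadjusted p under 0.05, at 0.35 (SE 0.090, adjusted p = 0.521 by limma). Sem1, a small lid subunit, was higher by 0.34 (SE 0.13, adjusted p = 0.320) in HFD-AOS than in HFD, and Usp14, a deubiquitinase of the regulatory particle, stood at -0.20 (SE 0.069, adjusted p = 0.280) in the same comparison. These 3 genes were chosen after their values were seen. HFD-AOS 1 held the highest value of all libraries for Sem1, at 168.13 FPKM, and for Ubqln4, at 16.97 FPKM. It held the lowest for Usp14, at 11.25 FPKM. HFD-AOS 2 and HFD-AOS 3 had 113.89 and 113.76 FPKM of Sem1, against 95.16 to 112.17 FPKM in HFD libraries, and 13.8 and 14.47 FPKM of Ubqln4. The fold changes of these genes therefore rest in part on HFD-AOS 1. Summed FPKM of the 6 ATPase genes per library ranged from 764 to 846, and those of the 11 non-ATPase base and lid genes from 750 to 847, with HFD-AOS 1 the lowest for both.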
